A study of Mus musculus with 9 samples.

Results

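The array of the tibialis anterior, the muscle in front of the shin, was set against the array of the supraspinatus, a muscle of the shoulder blade. These are 2 of the 9 arrays of the series, and both muscles came from male C57BL/6J mice aged 12 weeks. The members of the comparison are genes. Of 22180 genes with a probe set of their own, 7394 had a log2 value of at least 5 in the higher of both arrays and were ranked by tibialis anterior minus supraspinatus, and the other 14786 lay under that floor. A difference of at least 1 on the log2 scale, which is 2-fold, was counted as apart.

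The series profiled 9 skeletal muscles of these mice on GeneChip Mouse Gene 2.0 ST arrays, which measure RNA across whole transcripts, with 1 array per muscle. The other muscles were rectus femoris, gastrocnemius and soleus of the hindlimb, triceps and trapezius of the forelimb and shoulder, and masseter and digastric of the head. The region of each muscle was taken from anatomy, since the labels name the muscle alone. No treatment or genetic change is named for any array, and no source used here says whether animals were pooled. With 1 array per muscle a difference between both arrays has no replicate check, so the values below are a description without a p-value, and what separates the muscles cannot be told apart from what separates the 2 samples. The number of arrays limits the precision.

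Muscle fibres are of fast and slow types, which carry different myosins, troponins and calcium pumps. The fastest fibres draw mainly on glycogen and glycolysis, while oxidative fibres burn fatty acids in their mitochondria. Hox genes encode transcription factors that mark position along the body axis, and those of the 5' ends of the clusters are active in the posterior trunk and in the limbs. Adipose tissue, white and brown, lies beside the shoulder muscles of the mouse and is known for genes of fat storage and heat production.

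Both arrays carried the fast fibre genes at high levels and the slow ones at low levels, as the choice of 2 fast muscles assumed. Myh4, the myosin heavy chain of the fastest fibres, was at 12.94 in tibialis anterior and 12.88 in supraspinatus, against 8.85 in soleus. Myh7, the slow myosin heavy chain, was at 4.35 in tibialis anterior and 4.43 in supraspinatus, against 11.62 in soleus. The SD over probe sets was 2.043 in tibialis anterior and 2.033 in supraspinatus, so that both belonged to the 6 arrays with an SD above 2. Rectus femoris, gastrocnemius and triceps had a narrower spread, with SDs between 1.919 and 1.957, and values of these 3 arrays are set beside the others below with that difference in mind.

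Over the ranked genes tibialis anterior and supraspinatus were close to each other. Probe sets with several genes or none were not ranked, and a larger share of them was apart, 111 higher and 156 lower of 3331 at the floor. Of the 7394 ranked genes, 35 were at least 2-fold higher in tibialis anterior, which is 0.473% of them, and 35 were at least 2-fold lower, again 0.473%. The median difference was -0.01 with an SD of 0.31 over genes, and the middle 90% of genes lay between -0.44 and 0.49. Across the ranked genes Pearson's r between both arrays was 0.971, a description over genes, which are not replicates.

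The same count was taken for every pair among the 6 arrays of wider spread. Tibialis anterior and supraspinatus had 70 genes apart, or 0.947% of those at the floor, the lowest count of the 15 pairs. This pair was chosen for similar fibre type and value range, so a low count follows in part from the choice. The pairs also leave out rectus femoris, gastrocnemius and triceps, whose fast fibre genes had medians of 11.84, 11.67 and 11.68. Those medians were 11.99 in tibialis anterior and 11.94 in supraspinatus. The next pair, supraspinatus and trapezius, had 128. Tibialis anterior differed from trapezius by 251 genes and from soleus, the slow hindlimb muscle, by 494. A hindlimb muscle and a shoulder muscle were thus nearer to each other in these values than masseter and digastric, both of the head, with 211 genes apart. Every pair compares 2 single arrays.

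**Figure D1:**
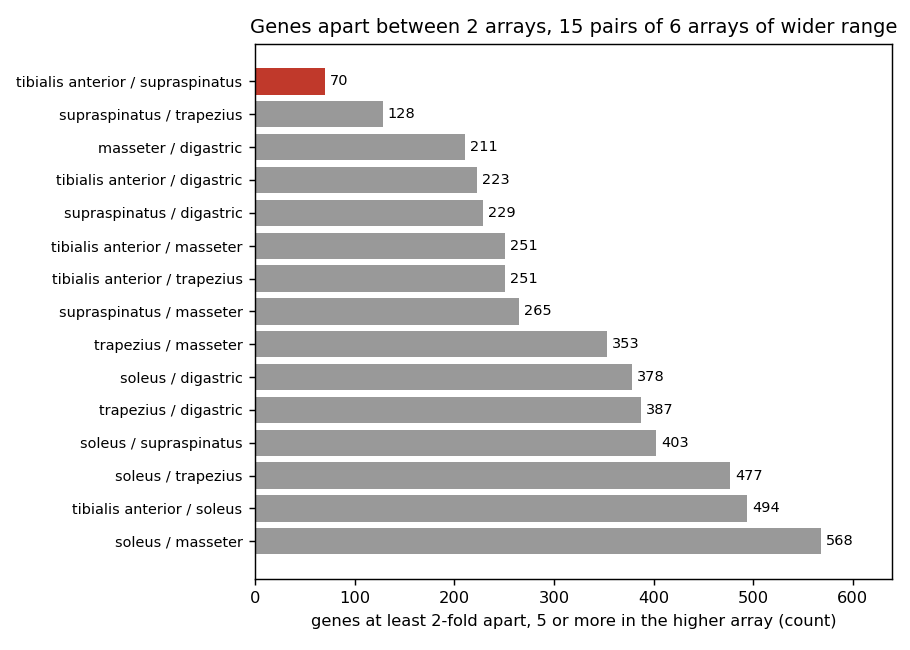
Count of genes at least 2-fold apart, with a log2 value of at least 5 in the higher array (horizontal axis), for the 15 pairs among the 6 arrays of wider spread. The red bar is tibialis anterior and supraspinatus with 70 genes, the fewest; soleus and masseter, at 568, have the most.

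The ranking has soft edges. The last nameable genes inside the upper limit were Xrn1 at 1.02 and Naa15 at 1.0, and the first outside it were Cmbl, which also rounds to 1.0, and Fam133b at 0.99. At the lower limit Dgat2 (-1.06) and Gbp10 (-1.01) lay inside, and Mss51 (-0.99) and Pcsk6 (-0.98) outside. Under the floor, 46 genes differed by at least 2-fold in each direction, led by Hoxc9 (1.79, with 4.89 in tibialis anterior and 3.10 in supraspinatus) among the higher ones. Lyz1 (-1.34, with 3.25 in tibialis anterior and 4.59 in supraspinatus) was among the lower ones there. Of the ranked genes apart, 30 of the higher and 27 of the lower 35 were protein-coding or long RNA genes that could be named, and the rest were small RNAs, predicted genes or clones.

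Hoxc10, a homeobox gene near the 5' end of the HoxC cluster, had the largest difference in either direction. Its log2 value was 7.84 in tibialis anterior and 3.22 in supraspinatus, a difference of 4.62 or 24.6-fold. The other hindlimb arrays had 6.97 in rectus femoris, 6.85 in gastrocnemius and 7.07 in soleus. Triceps had 4.14, trapezius 3.39, masseter 3.06 and digastric 3.30. All 4 hindlimb values therefore lay above all 5 others, and tibialis anterior was the highest of them. The supraspinatus value was below the median of all probe sets on its array (3.39), where signal cannot be told from background, so the fold is an estimate of a level against background.

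The other Hox genes were low in both muscles, and of 36 measured only Hoxc10 and Hoxa6 reached the floor. In paralogue groups 9 to 13, those of the 5' cluster ends, 13 of 15 genes were higher in tibialis anterior, 1 of them by at least 2-fold with the floor (background 0.473%). The median difference was 0.32, against 0 over all 22180 genes and -0.01 over the ranked ones. Only 1 of the 15 reached the floor, so this median rests mostly on values near background. Hoxc9 was at 4.89 in tibialis anterior and 3.10 in supraspinatus, and the other hindlimb arrays, at 4.0 to 4.96, lay above triceps (3.58) and trapezius (3.44). Hoxc11 was at 4.09 in tibialis anterior and 3.22 in supraspinatus, with 3.97 to 4.45 in the other hindlimb arrays, 3.48 in triceps and 2.88 in trapezius. For these HoxC genes the hindlimb arrays did not overlap with those of the shoulder and forelimb, with tibialis anterior and supraspinatus counted. The other hindlimb arrays lay above triceps and trapezius in 3 of the 15 genes, against 7.31% of all genes without a floor. Hoxc9 and Hoxc11 lay under the floor, and Hoxc12 ran the other way, with a difference of -0.28.

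Hoxa10, the gene in the title of the series, was at 4.02 in tibialis anterior and 3.81 in supraspinatus, a difference of 0.21. Its values in the remaining arrays ran between 3.26 in both head muscles and 4.43 in gastrocnemius, and triceps, at 4.08, lay above tibialis anterior. Hoxa13 was at 4.40 in tibialis anterior and 3.48 in supraspinatus, yet triceps reached 4.41. The hindlimb and forelimb arrays overlapped for both HoxA genes.

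In groups 5 to 8, 5 of 11 genes were higher in tibialis anterior and 5 lower, with a median of 0. Hoxc6 was at 4.32 in tibialis anterior and 3.07 in supraspinatus, and Hoxc8 was at 3.80 in tibialis anterior and 2.98 in supraspinatus. Hoxa5 ran the other way, at 3.25 in tibialis anterior and 4.35 in supraspinatus, where it was the highest of the 9 arrays. In groups 1 to 4, 5 of 10 genes were higher and the differences ran between -0.49 (Hoxb1) and 0.22 (Hoxc4).

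Of 25 other patterning factors of the limb 13 were higher in tibialis anterior, with a median of 0.04 over all and -0.06 over the 7 at the floor. At the floor 0 were at least 2-fold apart (background 0.473% in each direction). Under the floor En1, a homeobox factor of the ventral limb bud, was at 3.37 in tibialis anterior and 4.55 in supraspinatus, the largest difference of the list at -1.18. Tbx4, a T-box factor of the hindlimb bud, was at 4.19 in tibialis anterior and 4.05 in supraspinatus. Tbx5, its forelimb relative, was at 3.29 in tibialis anterior and 3.42 in supraspinatus. Pitx1, which acts upstream of Tbx4 in the hindlimb bud, was at 3.96 in tibialis anterior and 4.70 in supraspinatus, the highest of the 9 arrays. These values lie near background. Tbx15, a T-box factor of fast fibres in the mouse, was well above it, at 8.69 in tibialis anterior and 8.96 in supraspinatus.

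Whether the differences held between hindlimb and shoulder was read from the 5 limb arrays that the ranking did not use. Among the 35 genes higher in tibialis anterior, 4 (11.4%) had rectus femoris, gastrocnemius and soleus all above triceps and trapezius, where 2.87% of all ranked genes did. They were Hoxc10, Nr4a3, Mir483 and the clone F830016B08Rik. Among the 35 lower genes, 6 (17.1%) had the 3 hindlimb arrays all below, where 10.7% of all ranked genes did. Those were Gadd45g, Gpx3, Npr1, Tnfaip2, Lyve1 and F13a1. The remaining 60 of 70 genes did not have the order that matched their own direction.

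The limma test of the same contrast, with rectus femoris, gastrocnemius and soleus (n = 3) against triceps and trapezius (n = 2), called 0 of 22180 genes higher (0%) and 0 lower (0%) at an adjusted p under 0.05. Before adjustment 251 genes were higher and 253 lower at a limma p under 0.05. Together they are fewer than the 0.05 share of 22180 genes that this limit passes when none differ. They are thus no list of regional genes. Hoxc10 differed by 3.19 (SE 0.26, limma adjusted p = 0.121), higher in 3 of 3 hindlimb arrays.

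Car3, the carbonic anhydrase of slow fibres, adipocytes and liver, had the next difference, and it did not follow region. It was at 11.33 in tibialis anterior and 8.62 in supraspinatus, a difference of 2.70 or 6.52-fold, and its probe sets gave 2.70 and 2.97. The other limb arrays had 10.16 in rectus femoris, 11.27 in gastrocnemius, 11.34 in soleus, 10.69 in triceps and 11.30 in trapezius. Masseter had 7.03 and digastric 7.78. Supraspinatus thus was the lowest of the 7 limb and shoulder arrays and lay nearer to the head muscles.

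Smyd2, a lysine methyltransferase that binds to the sarcomere, was at 9.33 in tibialis anterior and 7.28 in supraspinatus. Values of the other arrays spread as widely, between 6.45 in digastric and 9.12 in gastrocnemius, with soleus at 7.23 and triceps at 8.80. Rhbdl1, a rhomboid family gene, was at 6.78 in tibialis anterior and 4.81 in supraspinatus. It was at 7.13 in gastrocnemius, 6.5 in rectus femoris, 6.15 in triceps, 5.70 in soleus and 4.96 in trapezius, and was lowest in the head muscles, at 4.56 and 3.90. In both genes tibialis anterior stood with gastrocnemius and rectus femoris at the high end, and triceps stood near them.

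Several genes were higher in tibialis anterior than in any other array. Cyp4f39, a cytochrome P450 gene, was at 7.01 in tibialis anterior, against 5.24 in supraspinatus and at most 5.27 elsewhere. Mettl11b, an N-terminal methyltransferase gene, was at 5.89 in tibialis anterior, against 4.29 in supraspinatus and at most 4.65 elsewhere. Nr4a3, a nuclear receptor gene of the immediate early kind, was at 6.32 in tibialis anterior, against 4.93 in supraspinatus and at most 5.05 elsewhere. At the floor, 630 genes (8.52%) had their highest value in tibialis anterior, 6 of them by at least 2-fold over each other array, and 324 (4.38%) had it in supraspinatus, 0 of them by 2-fold.

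Nr4a3 was the only one of 19 measured immediate early genes to be 2-fold apart (background 0.473%), and 10 of the 19 were higher in tibialis anterior, with a median of 0.00. Its relative Nr4a1 was at 9.09 in tibialis anterior and 8.60 in supraspinatus, and Jun was at 8.31 in tibialis anterior and 7.79 in supraspinatus. Egr1 was at 4.34 in tibialis anterior and 4.39 in supraspinatus, and Atf3 was at 5.23 in tibialis anterior and 5.58 in supraspinatus.

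Csrp3, which encodes muscle LIM protein of the Z-disc, was at 7.68 in tibialis anterior and 6.15 in supraspinatus. It is abundant in slow fibres, and soleus had 10.68, but trapezius, masseter and digastric were also high, at 9.17, 9.0 and 9.06. Only rectus femoris (5.74) was below supraspinatus. Trdn, which encodes triadin of the calcium release complex, was at 7.65 in tibialis anterior and 6.62 in supraspinatus, with triceps (6.29) and soleus (6.30) lower still. Ptpn3, a tyrosine phosphatase gene, was at 7.04 in tibialis anterior and 5.69 in supraspinatus, with 7.47 in soleus and 3.59 in masseter. Erbin, which binds the receptor ErbB2, and Togaram1, a gene of cilia, differed by 1.09 and 1.11.

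Jak2, the kinase of many cytokine receptors, was at 7.26 in tibialis anterior and 5.76 in supraspinatus. Masseter, at 7.2, was nearly as high as tibialis anterior, and soleus, at 5.12, was lowest. Some of the higher genes had low values in the 3 arrays of narrow spread. Zfp280d, a zinc finger gene, was at 5.50 in tibialis anterior and 3.76 in supraspinatus, with 5.60 in masseter and 5.45 in digastric. Top2b (DNA topoisomerase II beta), Eprs (a tRNA synthetase), Pcm1 (a centriolar satellite protein), Senp6 (a SUMO protease) and Cul5 (a ubiquitin ligase scaffold) differed by 1.26, 1.18, 1.07, 1.07 and 1.04. In 14 of the 35 higher genes (40.0%) rectus femoris, gastrocnemius and triceps all lay below soleus, trapezius, masseter and digastric, against 34.6% of all ranked genes and 7 of the 35 lower genes (20%). The share among the higher genes is near that of all ranked genes, and the order was looked for after the values were seen. The genes higher in tibialis anterior also spanned more of the genome, with a median of 41.4 kb between gene ends, against 12.3 kb for the lower and 24 kb for all ranked genes, and the part of gene length or array spread in these differences was not tested.

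Some differences rest on the probe set used. Raver2, an RNA-binding protein gene, differed by 1.07 on the probe set used and by -0.23 on its other one. Cul5 differed by 1.04 and -0.13. Defa34 (1.08) belongs to the alpha defensins, whose copies are nearly identical, so its signal cannot be assigned to that gene alone.

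Mmp13, a collagenase of bone, cartilage and healing tissue, and Ibsp, the bone sialoprotein gene, were higher in tibialis anterior than in supraspinatus, and high in both against all other muscles. Mmp13 was at 7.82 in tibialis anterior and 6.73 in supraspinatus, and between 2.22 and 3.87 in the 7 other arrays. Ibsp was at 6.85 in tibialis anterior and 5.49 in supraspinatus, and between 2.16 and 3.77 in the others. Even the lower of both values exceeded the highest other array by 2.86 for Mmp13 and by 1.72 for Ibsp. Of all ranked genes 147 (1.99%) were higher in both arrays than in the 7 others, and 3 of them were so by at least 2-fold, with Tnn the third. Among the ranked genes 78 (1.05%) were lower in both by any amount, and 0 by 2-fold. The floor was set on these same 2 arrays, so genes low in both could miss it. The counts of lower and higher genes therefore cannot be set against each other.

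Tnn, which encodes tenascin-W of bone and tendon matrix, was at 5.66 in tibialis anterior and 6.11 in supraspinatus, and at most 4.51 elsewhere. Col12a1, a collagen of tendon and fascia, was at 7.44 in tibialis anterior and 7.29 in supraspinatus, and at most 6.5 elsewhere. Postn, the matrix protein periostin, was at 7.40 in tibialis anterior and 7.34 in supraspinatus, and at most 6.77 elsewhere. Ctsk, the collagen-degrading protease of osteoclasts, was at 6.17 in tibialis anterior and 5.47 in supraspinatus, and at most 5.03 elsewhere. These genes were taken up because of their values, which are no test.

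Of 11 measured cartilage and bone markers, Ibsp was the only one higher in both arrays than in each of the 7 others. Between both arrays 5 markers were higher and 6 lower in tibialis anterior, 1 by at least 2-fold (Ibsp; background 0.473%), with a median of -0.06 over all and 0.19 over the 4 at the floor. Sp7, the osteoblast factor, was at 3.11 in tibialis anterior and 3.35 in supraspinatus, and at 2.76 to 3.43 elsewhere. Bglap, osteocalcin, was at 2.92 in tibialis anterior and 2.71 in supraspinatus, and at 2.52 to 3.43 elsewhere. Acan, the cartilage proteoglycan, was at 3.49 in tibialis anterior and 3.91 in supraspinatus, and at 2.71 to 3.51 elsewhere. All 3 lie at or near the level of background. The summed level of the 11 markers on the log2 scale was 8.40 in tibialis anterior and 8.05 in supraspinatus. It was between 7.28 and 8.04 in the other arrays, with soleus at 8.04, next to supraspinatus. The sum holds Ibsp, itself taken up because it was high in both arrays, so it shows no rise of the other markers. In bulk RNA fewer cells of a type and less RNA per cell cannot be told apart, here and for the markers below.

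The promoters of Mmp13 and Ibsp are shown because these genes were high in the same 2 arrays, and that of Ucp1 because it led the lower genes. Each is the 250 bases before the RefSeq start, build GRCm38.p6, plus strand, with searched motifs in capitals. The motifs, on both strands, were TATAAA (the TATA box), TGANTCA (the AP-1 site), TGTGGT (the core of the Runx site) and AGGTCA (the nuclear receptor site), and no match overlapped another. Mmp13 lies at chr9:7272264-7272513, Ibsp at chr5:104299037-104299286 and Ucp1 at chr8:83290098-83290347.
Mmp13: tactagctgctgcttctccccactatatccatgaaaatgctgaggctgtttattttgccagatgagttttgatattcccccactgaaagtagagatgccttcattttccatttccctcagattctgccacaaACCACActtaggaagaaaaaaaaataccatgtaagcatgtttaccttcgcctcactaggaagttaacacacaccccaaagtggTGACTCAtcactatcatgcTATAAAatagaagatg
Ibsp: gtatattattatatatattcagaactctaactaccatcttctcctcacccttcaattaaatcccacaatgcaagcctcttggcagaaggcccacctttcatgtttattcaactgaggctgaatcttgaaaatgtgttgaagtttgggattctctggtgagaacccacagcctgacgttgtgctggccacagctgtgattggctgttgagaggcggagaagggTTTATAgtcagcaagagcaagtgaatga
Ucp1: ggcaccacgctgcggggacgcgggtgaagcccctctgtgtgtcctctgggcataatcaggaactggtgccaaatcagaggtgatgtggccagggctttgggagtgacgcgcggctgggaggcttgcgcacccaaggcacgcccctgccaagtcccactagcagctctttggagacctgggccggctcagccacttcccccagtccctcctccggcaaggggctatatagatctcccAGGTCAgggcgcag
The Mmp13 window held TATAAA 16 bases, TGANTCA 35 bases and TGTGGT, on the other strand, 118 bases before the start. The Ibsp window held TATAAA, on the other strand, 28 bases before the start, and the Ucp1 window held AGGTCA 14 bases before it. Over 32851 RefSeq promoter windows of that length the shares with a match were 12.4% for TATAAA, 6.75% for TGANTCA, 14% for TGTGGT and 14% for AGGTCA. The matches describe the letters of these windows and say nothing of binding.

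**Figure D2:**
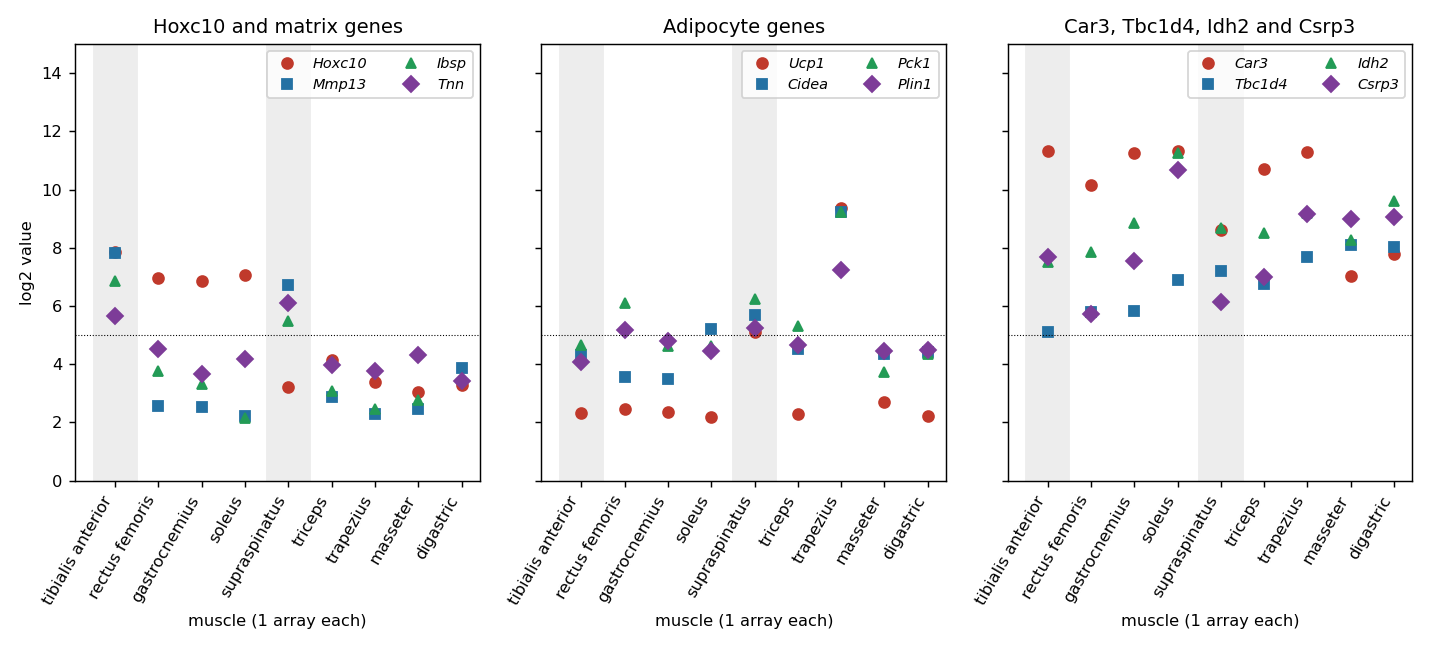
Log2 value (vertical axis) of 12 genes in each of the 9 arrays (horizontal axis), with tibialis anterior and supraspinatus shaded and the floor of 5 dotted. Left, Hoxc10 is high in the 4 hindlimb arrays while Mmp13, Ibsp and Tnn are high in the 2 shaded ones; middle, the adipocyte genes peak in trapezius with supraspinatus above tibialis anterior; right, Car3, Tbc1d4, Idh2 and Csrp3.

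Genes of adipocytes led the genes lower in tibialis anterior. Ucp1, the uncoupling protein of brown fat, was at 2.31 in tibialis anterior and 5.10 in supraspinatus, a difference of -2.79 or 6.9-fold. Trapezius had 9.36, and the other 6 arrays had 2.19 to 2.72. Cidea, a lipid droplet protein of brown fat, was at 4.32 in tibialis anterior and 5.69 in supraspinatus, with 9.22 in trapezius and 3.51 to 5.22 in the rest. Supraspinatus ranked next to trapezius for both genes. Since tibialis anterior was near background for Ucp1, its fold is an estimate too.

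Pck1, the gluconeogenic enzyme that adipocytes use to make glycerol, was at 4.66 in tibialis anterior and 6.25 in supraspinatus, with 9.23 in trapezius and 6.10 in rectus femoris. Fasn, fatty acid synthase, was at 5.78 in tibialis anterior and 7.16 in supraspinatus, with 9.45 in trapezius and 7.21 in rectus femoris. Plin1, the coat protein of the adipocyte lipid droplet, was at 4.09 in tibialis anterior and 5.24 in supraspinatus, with 7.24 in trapezius and 5.17 in rectus femoris. Rectus femoris was thus close to supraspinatus in all 3 genes. Further lower genes of fat metabolism or abundant in fat were Cdo1 (cysteine dioxygenase, -1.42), Cidec (a lipid droplet protein, -1.28), Hp (haptoglobin, -1.22), Thrsp (a lipogenic protein, -1.15) and Dgat2 (triglyceride synthesis, -1.06). In 17 of the 35 lower genes (48.6%) trapezius was the highest of the 7 other arrays, against 12% of all ranked genes and 1 of the 35 higher genes. This order was looked for after the values were seen.

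Of 13 measured white adipocyte markers 12 were lower in tibialis anterior, 4 of them by at least 2-fold (background 0.473%), and the median difference was -0.73. Adipoq, adiponectin, was at 3.46 in tibialis anterior and 4.39 in supraspinatus, with 6.67 in trapezius. The exception was Car3, higher in tibialis anterior by 2.70. The summed level of the markers without Car3 was 9.92 in tibialis anterior and 10.46 in supraspinatus, 12.11 in trapezius and 9.81 to 10.69 in the other arrays. Leaving out Car3, a choice made after its value was seen, gave a median of -0.83 over 12 markers. With Car3, which fibres also express, the summed level was 11.79 in tibialis anterior and 10.81 in supraspinatus.

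Of 9 measured brown adipocyte markers 4 were lower in tibialis anterior, 2 of them by at least 2-fold (Ucp1 and Cidea; background 0.473%). The median was 0.08 over all 9 and -0.22 over the 5 at the floor. Elovl3 and Otop1, further brown fat genes, were at 2.37 and 3.39 in tibialis anterior and at 2.12 and 3.22 in supraspinatus, and trapezius was highest, at 4.28 and 4.80. How much adipose tissue each sample held, and its part in these differences, was not tested.

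Tbc1d4, a Rab GTPase-activating protein in insulin-stimulated glucose uptake, was the lowest gene after Ucp1. It was at 5.11 in tibialis anterior and 7.21 in supraspinatus, a difference of -2.09 or 4.26-fold. The other arrays had 5.79 in rectus femoris, 5.83 in gastrocnemius, 6.88 in soleus, 6.75 in triceps, 7.69 in trapezius, 8.10 in masseter and 8.02 in digastric. Tibialis anterior was the lowest of all 9 arrays, and soleus lay above triceps, so that hindlimb and forelimb arrays overlapped.

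Several mitochondrial enzymes followed. Idh2, the mitochondrial isocitrate dehydrogenase, was at 7.5 in tibialis anterior and 8.68 in supraspinatus, with 11.24 in soleus, and tibialis anterior was the lowest of the 9 arrays. Bdh1, an enzyme of ketone body use, was at 3.88 in tibialis anterior and 5.10 in supraspinatus, with 7.27 in soleus. Acss1, the mitochondrial acetate-activating enzyme, was at 5.74 in tibialis anterior and 7.0 in supraspinatus, and its probe sets gave -1.26 and -0.75. Soleus had the highest value of all 9 arrays for these 3 genes.

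The other lower genes had no common role. Tlcd1, a membrane lipid gene, was at 8.64 in tibialis anterior and 10.08 in supraspinatus, and its probe sets gave -1.44 and -0.30. Adamts10, a protease of the matrix microfibrils, was at 4.22 in tibialis anterior and 5.53 in supraspinatus, and tibialis anterior was the lowest of the 9 arrays. Neat1, the nuclear RNA of paraspeckles, was at 8.73 in tibialis anterior and 9.90 in supraspinatus. Ddah1, which breaks down methylated arginines, and Cyp2e1, a cytochrome P450 gene, differed by -1.11 and -1.10.

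**Figure D3:**
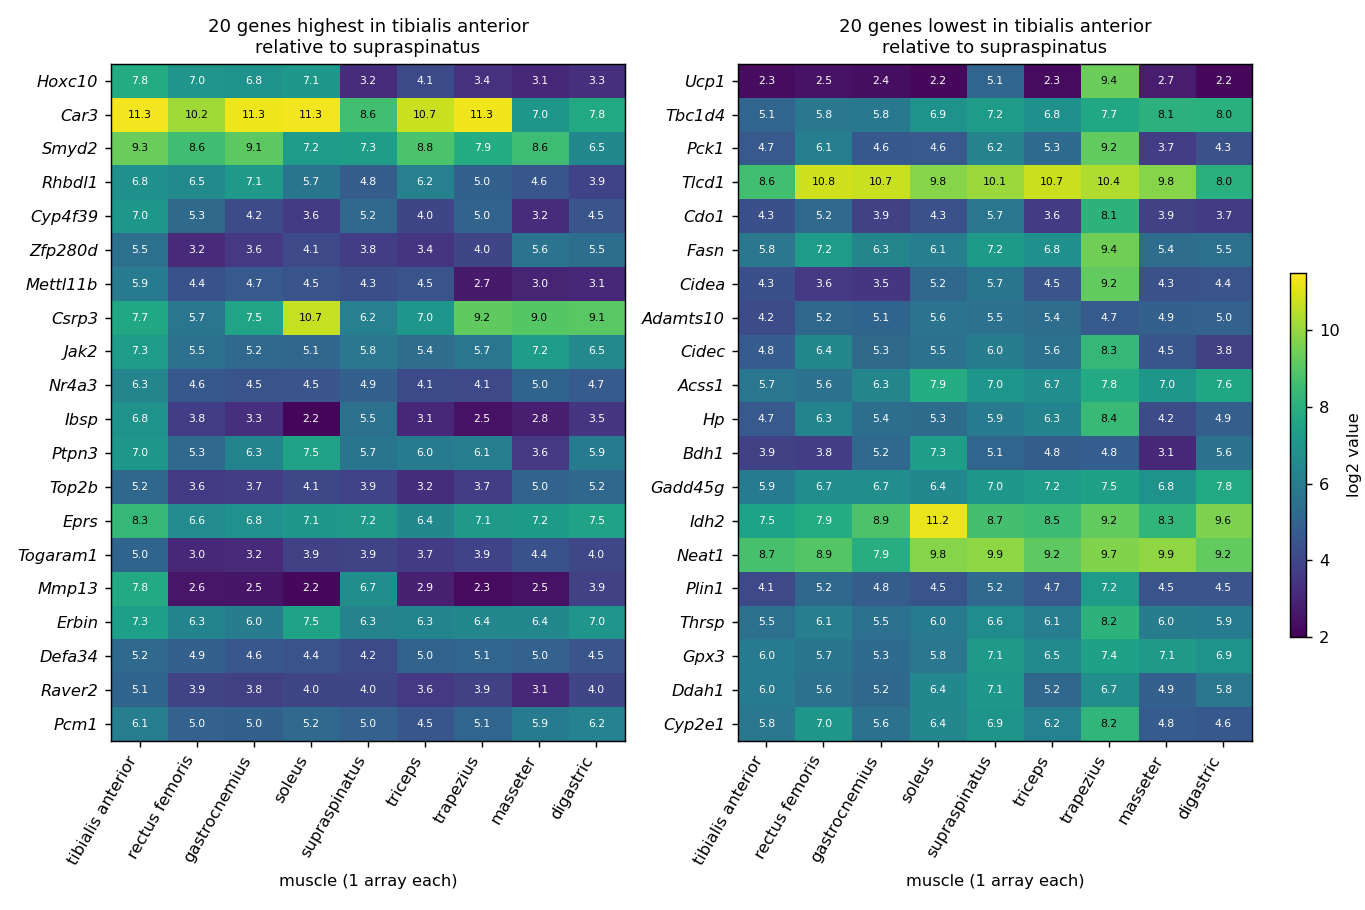
Log2 value, as colour and number, of the 20 nameable genes with the largest positive (left) and negative (right) difference in each of the 9 arrays. Hoxc10 is high across the hindlimb, whereas most rows show no step between hindlimb and shoulder; in the right panel trapezius holds the highest value for Ucp1, Pck1, Fasn, Cidea and other genes of fat.

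Genes lower in tibialis anterior and in the other hindlimb arrays included secreted and stress proteins. Gpx3, the secreted glutathione peroxidase, was at 5.96 in tibialis anterior and 7.10 in supraspinatus, with 5.31 to 5.75 in the other hindlimb arrays, 6.55 in triceps and 7.44 in trapezius. Gadd45g, a stress-induced growth arrest gene, was at 5.86 in tibialis anterior and 7.05 in supraspinatus, with 6.42 to 6.67 in the other hindlimb arrays, 7.21 in triceps and 7.45 in trapezius. For both genes all 4 hindlimb values lay below the 3 shoulder and forelimb values. Both are described here because of their difference and this order, so the order is no test. Of all ranked genes 10.7% had the other hindlimb arrays all below triceps and trapezius. In the limma test on the 5 arrays not used for the ranking Gpx3 differed by -1.41 and Gadd45g by -0.74, lower in 3 of 3 hindlimb arrays and not called (limma adjusted p = 1.0 for both).

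Lyve1, a receptor of lymphatic endothelium and resident macrophages, was at 5.48 in tibialis anterior and 6.54 in supraspinatus. F13a1, the coagulation factor XIII chain made by macrophages, was at 5.83 in tibialis anterior and 6.89 in supraspinatus. Both were lower across the hindlimb, at 5.75 to 6.00 for Lyve1 and 6.22 to 6.91 for F13a1, than in triceps and trapezius, at 6.70 and 6.22 for Lyve1 and 7.59 and 6.94 for F13a1. Both genes too were picked for this order. With supraspinatus counted, the order held for Lyve1 but not for F13a1, whose highest hindlimb value (6.91) lay above supraspinatus (6.89). Of 14 measured myeloid markers 10 were lower in tibialis anterior, 0 by 2-fold (background 0.473%), with a median of -0.26. Their summed level was 8.99 in tibialis anterior and 9.35 in supraspinatus, and between 8.58 and 10.15 in the other arrays, and their part in the 2 genes was not tested. Npr1, the receptor of atrial natriuretic peptide, differed by -1.09 on the probe set used and by -0.07 on its other one.

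Beyond the 2-fold genes, 8 more genes were named because they had the regional order and were higher in tibialis anterior. Smarcd1, a subunit of the SWI/SNF chromatin remodeller, was at 6.49 in tibialis anterior and 5.59 in supraspinatus, with 6.18 to 6.43 in the other hindlimb arrays, 5.48 in triceps and 5.56 in trapezius, although its probe sets gave 0.46 and 0.90. Tgfbr1, a TGF-beta receptor, was at 5.09 in tibialis anterior and 4.21 in supraspinatus, yet highest in masseter at 5.35. The other 6, Ccdc153, Nek7, Far1, Irf2bp1, Exoc4 and Dedd2, differed by 0.60 to 0.71. On the lower side Pcsk6, a proprotein convertase, was at 6.20 in tibialis anterior and 7.18 in supraspinatus, and Inmt, an indole methyltransferase, was at 5.21 in tibialis anterior and 6.04 in supraspinatus.

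The contractile programs differed little. Of 18 fast fibre genes 14 were higher in tibialis anterior, with a median of 0.10 and 0 at least 2-fold apart (background 0.473% in each direction). Ampd1, the muscle AMP deaminase, was at 10.94 in tibialis anterior and 10.33 in supraspinatus, and Myh1, the IIx myosin, was at 12.36 in tibialis anterior and 12.02 in supraspinatus. Myh2, the IIa myosin of oxidative fast fibres, was at 9.15 in tibialis anterior and 9.49 in supraspinatus. Of 18 slow fibre genes 11 were higher and 7 lower in tibialis anterior, with a median of 0.07. Only 1 was at least 2-fold apart, Csrp3 (background 0.473% in each direction). Over the 10 slow fibre genes at the floor the median was -0.25, of the opposite sign.

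Some slow genes were nevertheless lower in tibialis anterior. Tpm3, slow tropomyosin, was at 5.21 in tibialis anterior and 6.01 in supraspinatus, and its probe sets gave -0.80 and -0.15. Tnnc1, slow troponin C, was at 4.6 in tibialis anterior and 5.31 in supraspinatus, and Tnnt1, slow troponin T, was at 5.03 in tibialis anterior and 5.71 in supraspinatus. These lay far under soleus, at 9.79, 10.94 and 10.54. Atp2a2, the slow calcium pump, was at 6.79 in tibialis anterior and 7.30 in supraspinatus, with 11.62 in soleus.

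Energy metabolism differed in small steps. All 18 measured genes of fatty acid use were lower in tibialis anterior, with a median of -0.37, differences between -0.75 and -0.07, and 0 at least 2-fold apart (background 0.473%). Over all ranked genes 48.1% were higher in tibialis anterior and the median was -0.01. Plin5, which couples lipid droplets to mitochondria, was at 5.99 in tibialis anterior and 6.73 in supraspinatus. Lpl, lipoprotein lipase, was at 8.17 in tibialis anterior and 8.83 in supraspinatus, and Ppargc1a, the coactivator of mitochondrial genes, was at 7.13 in tibialis anterior and 7.70 in supraspinatus. Hadh, an enzyme of beta-oxidation, was at 9.23 in tibialis anterior and 9.74 in supraspinatus. White adipocyte markers were lower as well, with a median of -0.73, and the part of adipose tissue in the list of fatty acid use was not tested.

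The order of the other arrays did not follow region for this list. Its median level was 7.99 in tibialis anterior and 8.20 in supraspinatus. It was 7.35 in rectus femoris, 7.65 in gastrocnemius, 8.0 in triceps, 8.05 in masseter, 8.59 in trapezius, 8.74 in digastric and 9.02 in soleus. Only 1 of the 18 genes had all other hindlimb arrays below triceps and trapezius. Fabp3, the fatty acid-binding protein of muscle, differed by -0.57 on the probe set used and by 0.04 on its other one.

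Of 16 genes of glycolysis and glycogen 15 were higher in tibialis anterior, with a median of 0.14 and 0 at least 2-fold apart (background 0.473% in each direction). Pfkm, muscle phosphofructokinase, was at 11.47 in tibialis anterior and 11.03 in supraspinatus, and Fbp2, muscle fructose bisphosphatase, was at 6.69 in tibialis anterior and 6.12 in supraspinatus. Of 26 genes of the citrate cycle and respiratory chain 11 were higher, with a median of -0.08 and differences between -0.31 and 0.21. Both lists were nearer to 0 than the list of fatty acid use.

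Cells other than fibres were compared through their markers. Of 12 tendon markers 10 were higher in tibialis anterior, with a median of 0.28, among them Chad (chondroadherin), at 6.39 in tibialis anterior and 5.73 in supraspinatus. Tnmd, tenomodulin, was at 5.75 in tibialis anterior and 5.31 in supraspinatus. Of 11 smooth muscle and pericyte markers 9 were higher, with a median of 0.27, and of 12 endothelial markers 8 were higher, with a median of 0.20. Of 11 fibroblast and fibro-adipogenic markers 8 were lower, with a median of -0.32, among them Pdgfra, at 7.07 in tibialis anterior and 7.47 in supraspinatus. None of the members of these 4 lists was 2-fold apart at the floor (background 0.473% in each direction). The summed levels were 10.15 in tibialis anterior and 9.90 in supraspinatus for tendon and 10.73 in tibialis anterior and 11.11 in supraspinatus for fibroblasts.

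The remaining lists had medians between -0.12 and 0.22. Myogenic regulators and satellite cell genes had a median of 0.03 over 20 genes, with Pax7, the stem cell factor, at 4.52 in tibialis anterior and 4.46 in supraspinatus. Neuromuscular junction genes had -0.01 over 11, clock genes 0.07 over 16, atrophy and glucocorticoid response genes -0.07 over 20 and antioxidant genes -0.08 over 16. Calcium handling genes had -0.07 over 20, extracellular matrix genes 0.10 over 19, and developmental sarcomere genes 0.22 over 12. Lymphocyte (0.16), Schwann cell (-0.11), muscle spindle (0.01), erythroid (0.07), keratinocyte (-0.05) and salivary gland (-0.12) markers were the rest. Of the lymphocyte, Schwann cell, keratinocyte and salivary gland markers 1 each reached the floor, at -0.17, -0.41, -0.21 and 0.21. Of the muscle spindle and erythroid markers 0 did, so the medians of all these marker lists rest mostly on values near background. Among all of these, 2 genes were 2-fold apart at the floor (background 0.473% in each direction), Trdn and Gpx3, both described above.

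**Figure D4:**
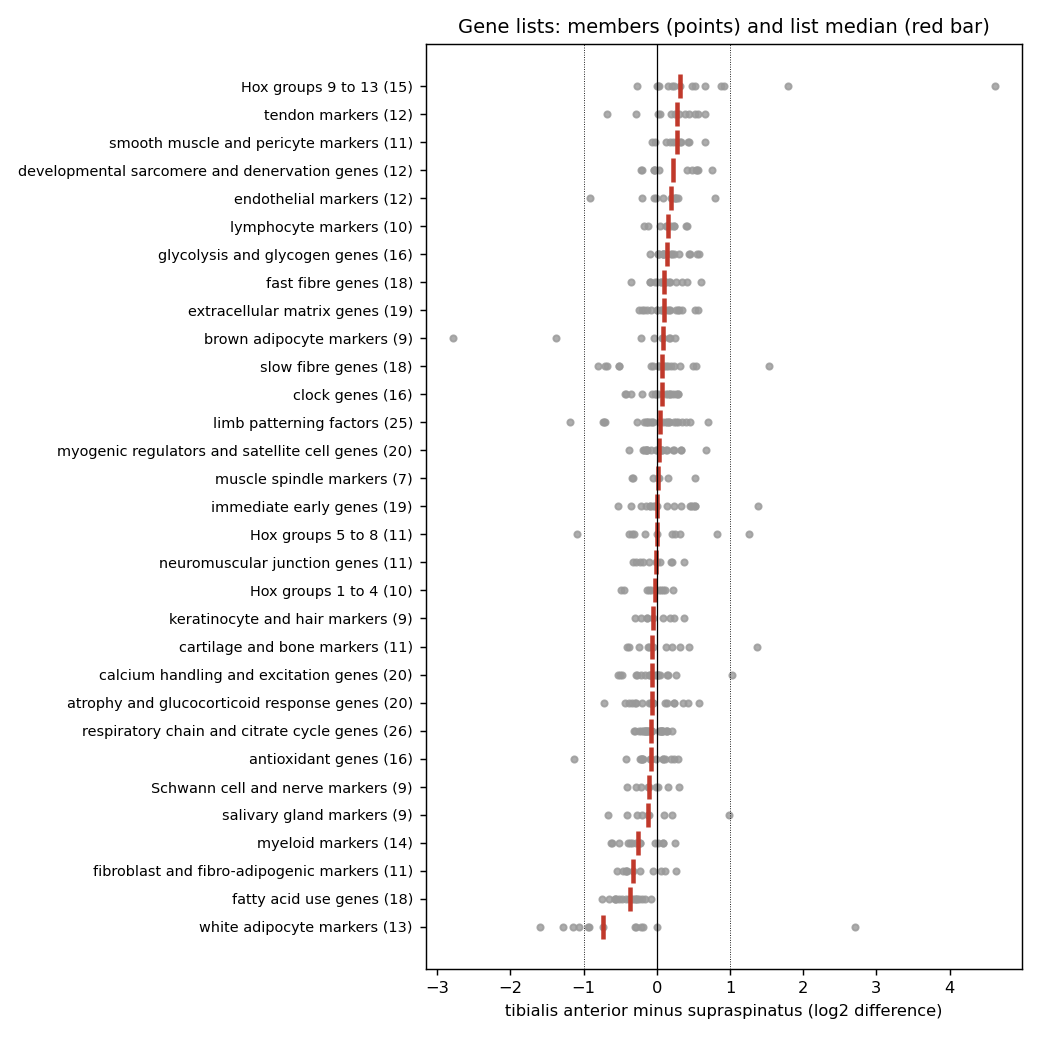
Tibialis anterior minus supraspinatus (log2 difference, horizontal axis) for the members of 31 gene lists, with the number measured in parentheses, points for genes and a red bar for the list median. Dotted lines mark 2-fold; white adipocyte markers have the lowest median (-0.73), genes of fatty acid use (-0.37) lie wholly below 0, and Hox groups 9 to 13 have the highest median (0.32).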

How the data were processed

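Values of 9 arrays, 1 per muscle, were used. Per the labels' protocols, RNA of frozen muscle was purified and labelled cDNA was hybridised. The authors deposited a log2 value for each probe set. The submitters' processing notes name GCRMA, a method that subtracts background estimated from probe sequence and scales the arrays to each other. That the scale is log2 was inferred from the deposited values, whose array medians were 3.34 to 3.44.

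Of 41345 probe sets, 23521 had 1 gene symbol, 1814 several and 16010 none in GEO's platform annotation. Through Entrez IDs 23328 symbols were updated to RefSeq (GRCm38.p6), of which names, gene types, gene spans and promoter sequences were used. Each of 22180 genes was represented by its probe set with the highest mean over the 9 arrays (1082 genes had several). The floor was 5 and the limit for apart was 1 on the log2 scale.

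The contrast of the 5 limb arrays not used in the ranking was fitted with limma 3.58.1 (lmFit, eBayes, two-sided) in R 4.3.3, with Benjamini-Hochberg adjustment over all genes and a threshold of 0.05. Its spread is between different muscles, with 3 residual degrees of freedom. Tested on simulated data for this contrast, over 22180 genes and 20 rounds, it recovered 65.0% of genes changed by 2 on the log2 scale. It recovered 93.6% of genes changed by 4, with 5.7 false calls per round. Many genes were changed at once in each round, which eases the adjusted threshold, so these shares do not carry over to data in which few genes differ. The 0 genes called in the real data do not show that the regions are alike. Tables were made with Python 3.11.15, pandas 2.3.3, numpy 2.4.6 and matplotlib 3.10.9.

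Named genes were the 20 largest differences in each direction, without predicted genes, clones, small RNAs and receptor families, the 10 largest in each direction with the regional order, all Hox genes and members of 32 lists (449 of 495 entries measured). A few genes at the limits of the ranking or high in both arrays were named after their values were seen. The comparison, its members and the lists were chosen with earlier results of these data known. The alternatives tried were other scalings, floors, probe set averages, fit settings and each array left out. Probe sets with several genes or none were not ranked. Of the 17824 not ranked, 3331 reached the floor, and 111 of these were at least 2-fold higher and 156 lower in tibialis anterior. That is a larger share in each direction than the 0.473% of ranked genes.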

Additional observations from a re-analysis of the deposited data

Results flagged for a closer look

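Among the 40 genes with the largest differences, 7 had 1 hindlimb array far from the other 3, by Dixon's test at the 5% level over the 4. Chance gives such a gap in about 1 in 20 groups, and over all 7394 ranked genes 432 (5.84%) had it. In 5 of the 7 genes the array was tibialis anterior, with Mmp13 at 7.82, Jak2 at 7.26, Nr4a3 at 6.32, Mettl11b at 5.89 and Raver2 at 5.07. The same tibialis anterior values entered the ranking, so the count is a description. In the other 2 it was rectus femoris, lower in Car3 at 10.16 and higher in Pck1 at 6.10.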

How the results depend on the processing

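The counts of genes higher and lower in tibialis anterior both depended on the floor. The higher genes numbered 53 with a floor of 4, 23 with a floor of 6 and 81 without a floor. The lower genes numbered 49, 24 and 81 at the same settings. All 35 genes of each direction are among those counts at the lower floors by construction. Of the higher genes, 9 had the regional order with a floor of 4 and 12 without a floor, where 5.01% and 7.31% of all genes had it. Centring each array, quantile normalization, cyclic loess and averaging probe sets gave 32 to 39 higher and 30 to 35 lower genes. Over 91 single genes, 361 of 364 values moved by less than the spread between the other muscles and 0 changed direction among those apart. The others, each on averaging probe sets, were Dedd2 (0.30), Npr1 (-0.58) and Raver2 (0.42). All 18 genes of fatty acid use stayed below 0 under these 4 alternatives, and 1 of 32 list medians changed sign, that of the neuromuscular junction (-0.01 to 0.01).

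In the limma test 0 genes were called higher on the 5 arrays under every setting. A fit over all 9 arrays called 1, Hoxc10 (3.60, limma adjusted p = 0.00206), but it holds the tibialis anterior and supraspinatus values that ranked Hoxc10 first and is no support for it. Leaving out 1 array in turn gave 0 higher genes each time and 0 to 1 lower genes, the 1 without triceps. Hoxc10 then differed by 2.82 to 3.57 (limma adjusted p = 0.281 to 1), where a lone array left in an arm is assumed to vary like the others, and over the other settings on these arrays its adjusted p ran between 0.0502 and 0.167. No paired analysis was possible because the labels carry no replicate numbers and each muscle has 1 array. With 1 array per muscle, animal, dissection and muscle cannot be told apart, and levels near the array median cannot be told from background.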
